A study of Mus musculus with 12 samples.

Results

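Serpin protease inhibitors are the genes of the mouse serpin superfamily, and they were taken as every gene symbol of clades A to I that begins with Serpin and a clade letter followed by a number. Serping1 was left out, and the reads of a gene were the sum over its transcripts that match, lie within, share a junction with or otherwise overlap on the same strand a reference transcript (classes =, c, j and o of the deposited table). The rule gave 63 genes of the 24516 genes with such transcripts, with 99 transcripts among them. RNA came from whole testes of male C57BL/6 mice that carried no engineered allele and received no treatment, with 3 mice at each of 3 months (3M), 6 months (6M), 12 months (12M) and 18 months (18M) of age. The libraries were made from total RNA without ribosomal RNA and hold no strand information. A mouse is named here by its age and number, so that 6M-3 is mouse 3 of 6M.

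A serpin presents a flexible loop as bait to a serine or cysteine protease, is cut there, and snaps into another fold that drags the bound protease along and distorts it for good. Most clade A serpins are secreted, whereas clade B serpins lack a classical signal peptide and mostly act inside cells. Some members have lost inhibition and serve as hormone carriers or as a chaperone. In the testis and the male tract, serpins meet the proteases of sperm, of the remodeling tubule and of blood cells, and male mice without Serpina5 are known to be infertile.

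The 12 libraries held 50924104 to 71803379 counted reads each, with a median of 56236682, and Pearson's r over genes between any pair of libraries was 0.993 to 0.996. Defining markers of the testis were present at every age. Summed CPM (counts scaled to library size with the TMM method of edgeR) of 6 spermatocyte markers lay between 1991 and 2181, and those of 11 Sertoli cell markers between 1158 and 1236 in all mice except 6M-3. Mouse 6M-3 stood apart with 1510 CPM of the Sertoli list. It had 1380 CPM of 7 Leydig cell markers, against 586.3 to 1094 CPM of the Leydig list elsewhere. Over the 3 mice of 6M, Insl3 of this list had 693.3 ± 247.9 CPM (SD). Cyp17a1 had 134.7 ± 6.44 CPM and Cyp11a1 62.2 ± 6.88 CPM, so the sum does not stand for every Leydig marker. Because 6M-3 stood apart in these sums, some results that rest on 6M are also given without it. These are edgeR log2 changes of single genes, signs over all members and the age of the highest mean. DESeq2 calls, counts by unadjusted p-value, counts without overlap, medians by clade and the family sum include 6M-3 throughout. Of 8 epididymis markers, Adam7 and Lcn5 had no read, and the list sum was at most 0.532 CPM. In whole tissue, fewer cells of a type and less RNA per cell cannot be told apart. The study leaves unclear whether the mice of an age were of 1 litter.

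By clade, 26 of the 63 genes belong to clade A, 27 to clade B, 3 to clade E, 2 each to clades F and I, and 1 each to clades C, D and H. Genomic clusters hold most of them. On mm10, 25 clade A genes lie in chr12:103616675-104414329, 15 clade B genes in chr13:32842092-34002794 and 12 clade B genes in chr1:106861180-107608978. No read was counted for Serpinb13, Serpinb12, Serpinb1c and Serpinb3d in any library, which allows a level of up to 0.0441 to 0.0624 CPM in a library if 3 reads are taken as the limit that a count of 0 sets, for counting error only. Reads were found in every library for 36 members. Mean FPKM, which is scaled by transcript length and so allows levels of genes to be compared, was 1 or more in 12 members, between 0.1 and 1 in 26 and below 0.1 in 25.

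Near copies limit what can be said of single members. Among 61 members with a coding sequence in GENCODE, 16 have another member that is identical at 90% or more of aligned columns. The alignment ran end to end and a gap counted as a difference, so a short coding sequence scores low. That of Serpina3g has 744 bases, against 1335 in Serpina3f, its nearest member at 51.1%. Likeness over their shared part was not measured. Pairwise, Serpina1a to Serpina1e share 91.6% to 96.8% of aligned columns and the Serpina3 genes 46.4% to 91.3%. The Serpinb6 genes share 69.9% to 87.1% and the Serpinb9 genes 75.6% to 98.7%. Reads of such copies may have been divided between them by the authors' alignment and assembly. Values of Serpina1, Serpinb9 and Serpinb3 genes, and of Serpina3k, Serpina3m, Serpinb1a and Serpinb1b, are therefore uncertain for the single gene. Serpina3c, at 89.1% to Serpina3m, and Serpina3n, at 85.6% to Serpina3c, lie below the 90% limit. Whether their values, or those of Serpina3g and Serpina3f, are also uncertain for the single gene was not tested.

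Serpinb6a was the serpin of the testis with by far the highest level. Its summed FPKM was 74.5, 60.9 and 74.2 in the 3 mice of 3M, 73.6, 79.3 and 75.4 at 6M, 70.7, 54.1 and 67.0 at 12M, then 84.1, 72.4 and 59.1 at 18M. It encodes an intracellular inhibitor of trypsin-like proteases and cathepsin G, and it alone made up 47.1% to 56.3% of the summed FPKM of the family. Serpina5, the heparin-regulated protein C inhibitor that also inhibits urokinase and the sperm protease acrosin, came next with 20.8 to 35.9 FPKM and 17.5% to 23.0% of the family. Serpina3g, an intracellular inhibitor of cysteine cathepsins, followed with 5.04 to 12.95 FPKM. The other 60 members together contributed 19.2% to 22.9% of the family's FPKM.

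The ranges of Serpinb6a, Serpina5 and Serpina3g did not overlap with each other. Below them, Serpinh1, the chaperone of procollagen in the endoplasmic reticulum, had a mean of 4.10 ± 0.42 FPKM (SD, n = 12). Serpina3c had 3.96 ± 1.02 FPKM and Serpina3a 3.68 ± 0.78 FPKM, both homologs of human alpha-1-antichymotrypsin, and the ranges of these 3 genes overlapped. Serpinf1, which encodes the secreted pigment epithelium-derived factor and inhibits no known protease, had 2.26 ± 0.56 FPKM. Serpini1 (neuroserpin, an inhibitor of tissue plasminogen activator) had 1.64 ± 0.14 FPKM and Serpinb9 (an inhibitor of granzyme B) 1.55 ± 0.12 FPKM, and their ranges overlapped. Serpinb1a, an inhibitor of neutrophil elastase and cathepsin G, had 1.16 ± 0.23 FPKM, Serpinb6c, a close relative of Serpinb6a, 1.05 ± 0.17 FPKM, and Serpina3n, an acute-phase inhibitor that binds granzyme B, 1.05 ± 0.74 FPKM.

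**Figure D1:**
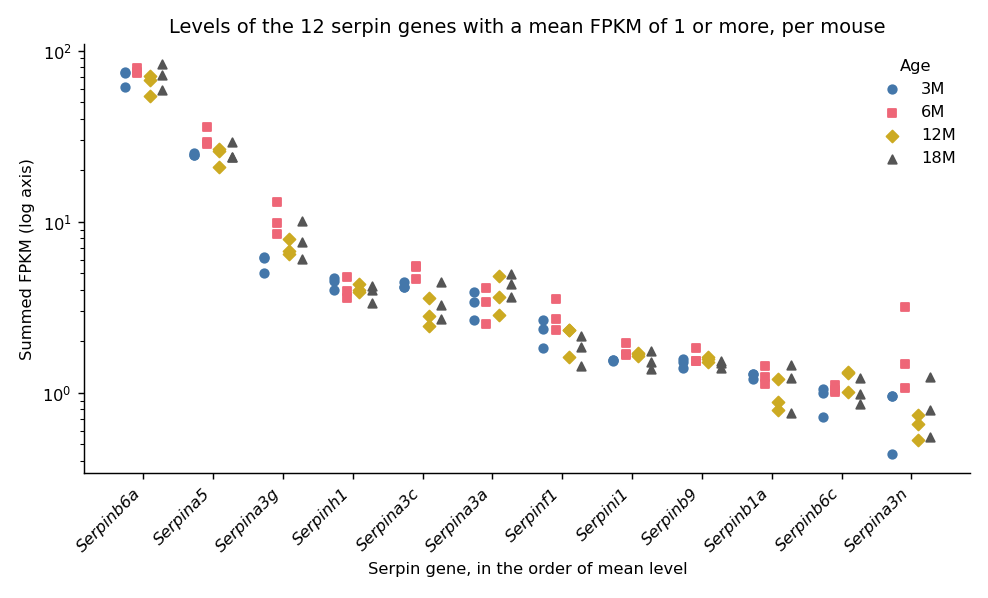
Summed FPKM (vertical log axis) of the 12 serpin genes with a mean of 1 FPKM or more, with 1 point per mouse and the 4 ages side by side. Serpinb6a and Serpina5 lie above all others in every mouse, and Serpina3n has 1 point far above the rest, mouse 6M-3 at 3.18 FPKM.

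Members differed in how much they varied between mice. Among the 11 members with a mean of 100 reads or more, the coefficient of variation of CPM over the 12 mice was lowest in Serpinb9 with 6.8% and Serpini1 with 8.12%. It was highest in Serpina3g with 26.7% and Serpina3n with 67.8%, and without 6M-3 these were 23.3% and 36.5%. The summed FPKM of the family was 128.1 ± 9.35 at 3M, 149.3 ± 10.4 at 6M, 121.4 ± 8.14 at 12M, then 132.2 ± 19.7 at 18M (SD, n = 3 each), and it ranged from 113.8 to 160.0.

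Does the family move with age? A test of the slope of counts on age over all 12 mice (edgeR quasi-likelihood F-test, adjusted with Benjamini-Hochberg over all genes tested) covered 43 members, those that passed the filter on low counts. It called 0 of them (adjusted p-value at most 0.05), while 0.41% of all genes tested were called. DESeq2 called 0 of the 23 members to which it gave an adjusted p-value, beside 3.45% of all genes. At an unadjusted p-value of 0.05 or less there were 8 members of 43 (18.6%), against 17.5% of all genes. Of these, 2 had a slope above 0 (Serpini2 and Serpinb2) and 6 a slope below 0 (Serpina3c, Serpinf1, Serpina3b, Serpina1d, Serpina1b and Serpina3i), where 8.26% of all genes were on the rising and 9.23% on the falling side. The median slope of the members was a log2 change of -0.0029 per month, beside -0.0002 over all genes tested.

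Between 3M and 18M, 0 of 40 members tested were called by edgeR, beside 0.0662% of all genes, and 0 of 34 with an adjusted p-value by DESeq2, beside 1.47%. At an unadjusted p-value of 0.05 or less there were 3 members (Serpina1d, Serpina1b and Serpina3i, all lower at 18M), 7.5% of those tested beside 13.5% of all genes. On the falling side alone the background was 7.25%, and on the rising side, with 0 members, 6.28%. The estimate was above 0 in 21 members, beside 49.6% of all genes. Serpina1d and Serpina1b also differed by at least 1 on the log2 scale, 5% of the members beside 0.827% of all genes. The CPM of the 2 ages did not overlap for 8 of 40 members (20%), beside 20.5% of all genes. Of these members 3 were higher at 18M (9.67% of all genes) and 5 lower (10.8%).

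Of the 8 members with such a p-value in the slope, 5 (Serpina1d, Serpina1b, Serpina3i, Serpini2 and Serpinb2) had at most 54 reads in a mouse. Serpina1d is a gene for alpha-1-antitrypsin, the inhibitor of neutrophil elastase that the liver releases into blood. Its counts were 31, 31 and 28 reads at 3M, 49, 27 and 54 at 6M, 14, 13 and 28 at 12M, then 7, 18 and 17 at 18M, so that every mouse of 18M was below every mouse of 3M. The fitted log2 change over 15 months was -1.62 (SE 0.44, edgeR adjusted p = 0.118). Serpina1b, another alpha-1-antitrypsin gene, had 17, 26 and 21 reads at 3M, 14, 7 and 27 at 6M, 16, 14 and 14 at 12M, then 6, 0 and 8 at 18M, with a log2 change over 15 months of -1.94 (SE 0.58, edgeR adjusted p = 0.143). The 3 mice of 18M again lay below those of 3M. Since these copies are nearly identical, their reads were also summed over Serpina1a to Serpina1e. The sum was 2.83, 2.70 and 2.67 CPM at 3M, 3.36, 1.81 and 4.27 CPM at 6M, 2.81, 1.86 and 2.66 CPM at 12M, then 1.58, 1.998 and 2.09 CPM at 18M. Thus 18M was also below 3M in the sum, by a smaller factor, while 6M ranged from 1.81 to 4.27 CPM. Levels of 5 liver markers summed to 1.146 to 1.54 CPM at 3M and 1.29 to 1.86 CPM at 18M.

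Serpina3i had 31, 21 and 31 reads at 3M and 16, 19 and 13 at 18M, barely without overlap in CPM (0.386 at the lowest against 0.384 at the highest), and a log2 change over 15 months of -1.16 (SE 0.43, edgeR adjusted p = 0.204). Serpina3b and Serpina3c had log2 changes over 15 months of -0.37 (SE 0.15) and -0.52 (SE 0.21). Serpinf1 had 3.96, 4.41 and 3.07 CPM at 3M, 3.94, 4.56 and 5.79 CPM at 6M, 3.98, 3.96 and 2.75 CPM at 12M, then 3.13, 2.44 and 3.66 CPM at 18M. Mice of 18M overlapped with those of 3M and 12M but lay below every mouse of 6M, and the log2 change over 15 months was -0.46 (SE 0.21). On the rising side, Serpini2 (pancpin) had 16, 24 and 20 reads at 3M, 17, 20 and 23 at 6M, 40, 53 and 34 at 12M, then 36, 34 and 31 at 18M. Every mouse of 12M and 18M was above every mouse of the 2 younger ages, and the log2 change over 15 months was 0.87 (SE 0.32, edgeR adjusted p = 0.208). Serpinb2, the plasminogen activator inhibitor of clade B, had 12 to 16 reads at 3M and 20 to 25 at 18M, with a log2 change of 0.64 (SE 0.25, edgeR adjusted p = 0.221).

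The steps on either side of 6M are described next. Promoter windows of 4 genes of the chromosome 12 cluster (Serpina5, Serpina3g, Serpina3c and Serpina3n) are shown because all 4 had an unadjusted p-value of 0.05 or less in both steps. Each window is the 250 bases before the RefSeq transcription start (GRCm38.p6, the assembly of mm10), printed 5′ to 3′ on the strand of the gene. Capitals mark matches, on either strand, to 5 motifs. One is TATAAA, the letters of the TATA box, and whether a match acts as one was not tested. Another is CCAAT, bound by the factor NF-Y. The motif GGGCGG is bound by Sp1. The palindrome TTCNNNGAA is bound by STAT factors. The last, TGTTCT, is part of the site of steroid receptors and reads AGAACA on the other strand. No matches overlap in these windows. The windows are Serpina5 at chr12:104100863-104101112 (+), Serpina3g at chr12:104235897-104236146 (+), Serpina3c at chr12:104153873-104154122 (-) and Serpina3n at chr12:104406458-104406707 (+).
Serpina5: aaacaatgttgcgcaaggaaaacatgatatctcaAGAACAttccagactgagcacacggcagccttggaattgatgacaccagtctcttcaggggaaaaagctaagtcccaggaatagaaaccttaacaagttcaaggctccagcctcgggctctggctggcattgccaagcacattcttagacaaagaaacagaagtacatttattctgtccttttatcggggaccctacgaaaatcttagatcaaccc
Serpina3g: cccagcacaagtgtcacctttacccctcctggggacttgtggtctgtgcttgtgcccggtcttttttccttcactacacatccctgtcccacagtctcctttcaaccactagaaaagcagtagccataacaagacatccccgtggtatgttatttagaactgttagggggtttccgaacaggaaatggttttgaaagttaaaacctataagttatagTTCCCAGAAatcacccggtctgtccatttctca
Serpina3c: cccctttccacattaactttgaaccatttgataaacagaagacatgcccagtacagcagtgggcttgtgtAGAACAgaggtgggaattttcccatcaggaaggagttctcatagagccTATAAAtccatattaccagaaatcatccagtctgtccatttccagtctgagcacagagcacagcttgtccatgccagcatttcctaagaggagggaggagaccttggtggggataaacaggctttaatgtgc
Serpina3n: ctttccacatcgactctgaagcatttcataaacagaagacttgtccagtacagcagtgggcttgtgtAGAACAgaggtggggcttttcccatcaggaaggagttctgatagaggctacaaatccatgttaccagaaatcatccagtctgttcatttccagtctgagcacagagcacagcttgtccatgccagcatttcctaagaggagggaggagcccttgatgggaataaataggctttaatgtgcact

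The windows of Serpina3c and Serpina3n were identical at 229 of 253 aligned columns (90.5%), whereas the other pairs shared 48.4% to 53.4%. TGTTCT was found in the windows of Serpina5, Serpina3c and Serpina3n, TATAAA in that of Serpina3c and TTCNNNGAA in that of Serpina3g. Among 32851 windows of this length, TGTTCT was present in 16.1%, TATAAA in 12.4%, TTCNNNGAA in 7.02%, CCAAT in 33.9% and GGGCGG in 32.7%. Of 62 member windows, 21 held TGTTCT, 17 TATAAA, 10 TTCNNNGAA, 19 CCAAT and 7 GGGCGG. The start of Serpina3g is from RefSeq only and was not found among GENCODE transcripts.

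Serpina3g (isoforms with reads at chr12:104236142-104242088, plus strand) showed the largest difference between 3M and 6M relative to its error. Its CPM was 14.6, 11.4 and 14.3 at 3M, 19.7, 22.1 and 27.2 at 6M, 15.6, 18.0 and 16.3 at 12M, then 25, 17.9 and 13.4 at 18M. All mice of 6M were above all mice of 3M and of 12M, and those of 18M spanned both. The log2 change was 0.78 (SE 0.15) from 3M to 6M and -0.46 (SE 0.13) from 6M to 12M, with edgeR adjusted p-values of 0.477 and 0.501. Serpina5 (RefSeq transcript at chr12:104101113-104106137, plus strand, and an assembled one that ends at 104121896) had 77.7, 73.1 and 74.9 CPM at 3M, 94.8, 86.1 and 106.5 at 6M, 80.8, 82.8 and 65.8 at 12M, then 91.8, 74.7 and 76.0 at 18M. It too was higher in every mouse of 6M than in any of 3M or 12M. Its log2 change was 0.35 (SE 0.08) from 3M to 6M and -0.32 (SE 0.11) from 6M to 12M, with edgeR adjusted p-values of 0.877 and 0.535.

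Serpina3c (chr12:104146907-104153872, minus strand) had 7.94, 8.31 and 7.99 CPM at 3M, 8.84, 10.3 and 10.2 at 6M, 5.37, 6.85 and 4.75 at 12M, then 8.42, 6.26 and 5.25 at 18M. Its larger step came after 6M. The log2 change was 0.28 (SE 0.09) from 3M to 6M and -0.79 (SE 0.15) from 6M to 12M, with edgeR adjusted p-values of 0.991 and 0.320. Serpina3n (chr12:104406708-104414329, plus strand) had 2.25, 1.03 and 2.25 CPM at 3M, 2.53, 3.40 and 7.23 at 6M, 1.25, 1.57 and 1.78 at 12M, then 2.91, 1.88 and 1.32 at 18M. Mouse 6M-3 alone set much of its mean, although all 3 mice of 6M were above those of 3M and 12M. Its log2 change was 1.26 (SE 0.44) and -1.51 (SE 0.38) in the same steps, and 0.69 and -0.95 without 6M-3. The RefSeq transcript of Serpina3n alone gave 0.63 and -1.02 (edgeR unadjusted p = 0.722 and 0.468), with 43.5% of the reads in an assembled isoform. With RefSeq transcripts only, Serpina5 gave 0.31 and -0.32 (edgeR unadjusted p = 0.0163 and 0.0585). Serpina3c then gave 0.26 and -0.78 (edgeR unadjusted p = 0.0469 and 0.00168). Without 6M-3 Serpina3g had log2 changes of 0.64 and -0.33, Serpina5 of 0.27 and -0.24 and Serpina3c of 0.25 and -0.76. The unadjusted edgeR p-value then passed 0.05 for Serpina3n (0.0905) and Serpina3c (0.0512) in the first step and for Serpina5 (0.0767) in the second.

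**Figure D2:**
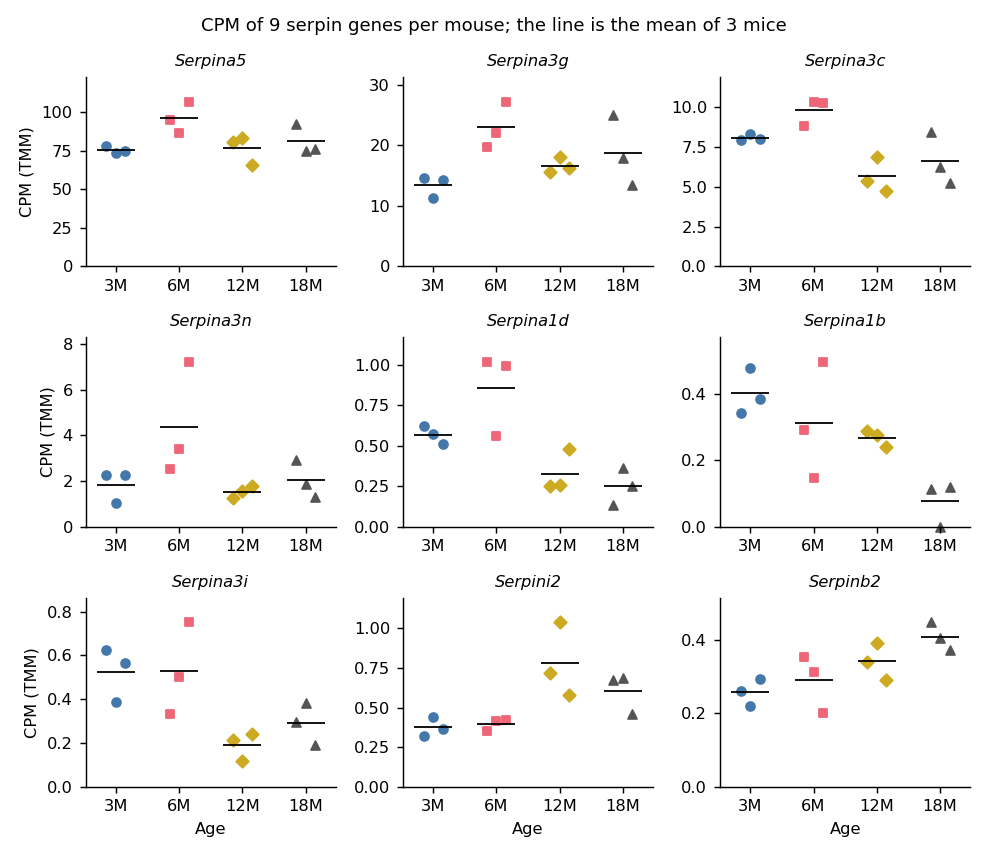
CPM (vertical axis from 0) of 9 serpin genes in each of 12 mice by age, with the mean of 3 mice as a line. The top row and Serpina3n are highest at 6M, Serpina1d, Serpina1b and Serpina3i are lowest at 12M or 18M, and Serpini2 and Serpinb2 are higher at 12M and 18M than at 3M.

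The edgeR test called 0 of 42 members tested between 3M and 6M and 0 of 40 between 6M and 12M, where it called 0.0497% and 0.0606% of all genes, respectively. DESeq2 called Serpina3g (adjusted p = 8.7e-05) and Serpina5 (adjusted p = 0.0324) in the first step and Serpina3c (adjusted p = 0.00101) and Serpina3n (adjusted p = 0.00594) in the second. These were 2 of 56 members with an adjusted p-value (3.57%, beside 0.313% of all genes) and 2 of 48 (4.17%, beside 0.565%). Both steps use the same 6M mice, so they are not independent of each other. DESeq2 was not run without 6M-3. At an unadjusted p-value of 0.05 or less there were 5 members between 3M and 6M (11.9%, beside 3.96% of all genes). All 5 were higher at 6M, as were 2.38% of all genes, and 0 were lower, beside 1.58%. Serpina3f, chosen after its values were seen, joins the 4 genes above with 0, 3 and 9 reads at 3M and 16, 17 and 16 at 6M. Between 6M and 12M there were 9 such members (22.5%, beside 8.72% of all genes). Of these, Serpini2 was higher at 12M, as were 4.14% of all genes. Lower at 12M were the 4 genes above with Serpina1d, Serpina3i and, also chosen after their values were seen, Serpina3h and Serpinb6b, 8 members in all beside 4.58% of all genes. A log2 difference of at least 1 was also seen in 2 members of the first step (Serpina3n and Serpina3f), beside 0.59% of all genes, and in 3 of the second (Serpina3n, Serpina1d and Serpina3i), beside 0.755%.

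Estimates over all members tested were counted next. From 3M to 6M the estimate was above 0 in 34 of 42 members, with a median log2 change of 0.17 beside 0.01 over all genes, where 52.2% were above 0. Without 6M-3 it was above 0 in 30 of 44 members, with a median of 0.14. From 6M to 12M it was below 0 in 28 of 40 members, with a median of -0.18 beside -0.0004 over all genes, where 49.8% were above 0, and in 25 of 42 members without 6M-3, with a median of -0.12. The Serpina3 genes had a median of 0.38 in the first step, with 9 of 9 tested above 0, and of -0.46 in the second, with 7 of 9 below 0. Some Serpina3 genes are near copies, so their values may not be separate measurements. Clade A genes of chromosome 12 had medians of 0.32 and -0.23, with 16 of 19 above 0 in the first step and 14 of 19 below 0 in the second. Clade B had medians of 0.16 and -0.23, with 11 of 14 above 0 and 9 of 12 below 0, so estimates leaned the same way outside the cluster, and the difference between the clades was not tested. CPM did not overlap between 3M and 6M for 8 of 42 members, beside 9.5% of all genes. Of these, 7 were higher at 6M (4.88% of all genes) and 1 lower (4.62%). Between 6M and 12M it did not overlap for 12 of 40, beside 16.4% of all genes, with 1 higher at 12M (8.44%) and 11 lower (7.97%).

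**Figure D3:**
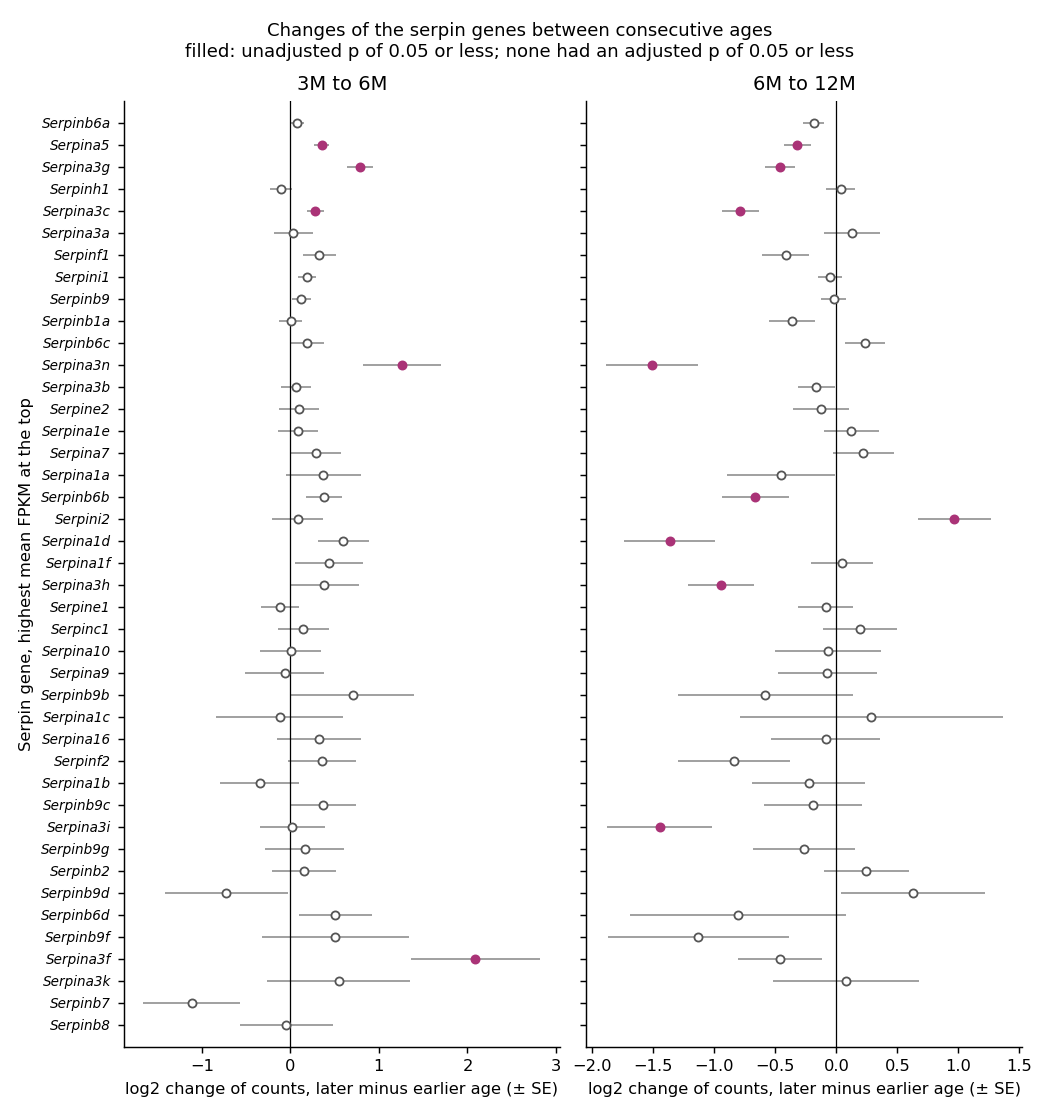
Fitted log2 change of counts (horizontal axis, later minus earlier age) with its standard error for each serpin gene tested between 3M and 6M and between 6M and 12M, ordered by mean FPKM. Filled points have an unadjusted p-value of 0.05 or less, 5 in the first panel, all to the right of 0, and 9 in the second, 8 of them to the left.

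Counted by age, 21 of the 43 members tested in the slope had their highest mean CPM at 6M, as did 26.6% of all genes tested, and 2 had their lowest mean there. Without mouse 6M-3 the number was 18 of 43, beside 26.4% of all genes. Mouse 6M-3 was the highest of the 12 mice for 16 of 43 members, beside 13.9% of all genes. Next came 18M-1 with 7 members, beside 6.08% of all genes, and 6M-2 with 5, beside 5.67%. Mice 3M-3, 12M-3 and 18M-3 were highest for 0 members, beside 9.95%, 15.7% and 6.92% of all genes. A test of any difference among the 4 ages, chosen after the high means at 6M were seen, called 0 of 43 members, and its smallest adjusted p-value was 0.283.

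Sums of marker lists of other cells are given beside these genes. The Leydig list summed to 918.3, 1094 and 943.3 CPM at 3M, 856.9, 956.9 and 1380 CPM at 6M, 698.5, 730.1 and 675.7 CPM at 12M, then 802.3, 635.9 and 586.3 CPM at 18M, so that all mice of 6M were above those of 12M. Mice of 3M and 6M overlapped in the Leydig sum. From 3M to 6M the mean of Cyp17a1 went from 159.2 to 134.7 CPM and that of Cyp11a1 from 71.1 to 62.2 CPM. Insl3 went from 594.9 to 693.3 CPM and Lhcgr from 2.93 to 3.17 CPM. Over all ages, the Leydig genes Cyp17a1, Cyp11a1 and Lhcgr fell. The slope called 3 of 7 with edgeR, beside 0.41% of all genes, and 5 with DESeq2, beside 3.45%. The macrophage list of 6 genes summed to 53.8 to 57.0 CPM at 3M, 56.6 to 65.6 CPM at 6M and 41.7 to 54.5 CPM at 12M. Of its 6 genes, 0 were called by edgeR or DESeq2. An unadjusted edgeR p-value of 0.05 or less was found for 1, beside 17.5% of all genes. The fibroblast list of 4 genes summed to 33.3 to 49.2 CPM at 3M, 35.7 to 42.5 CPM at 6M and 27.7 to 32.2 CPM at 12M. The part of these lists in the serpin values was not tested. T cell markers were low at 2.49 to 3.86 CPM for the list, with a mean of Cd3d between 2.33 CPM (6M) and 2.72 CPM (18M). Of the mast cell list, Mcpt4, Cma1 and Tpsb2 had no read.

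Along the chromosome 12 cluster, the genes with an unadjusted p-value of 0.05 or less in either step lay mainly in its distal part, from Serpina5 to Serpina3n. Serpina1d was the exception among the Serpina1 genes. Some direct neighbors had no such p-value. Serpina3a (chr12:104112724-104121896), next to Serpina5, had log2 changes of 0.03 (SE 0.22) and 0.13 (SE 0.23). Serpina3b, between Serpina3a and Serpina3c, had 0.07 (SE 0.17) and -0.16 (SE 0.15). Whether neighbors differ from each other was not tested. An assembled transcript with 27.2% of the reads of Serpina5 runs on through Serpina3a, so the values of these 2 genes may not be separate.

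**Figure D4:**
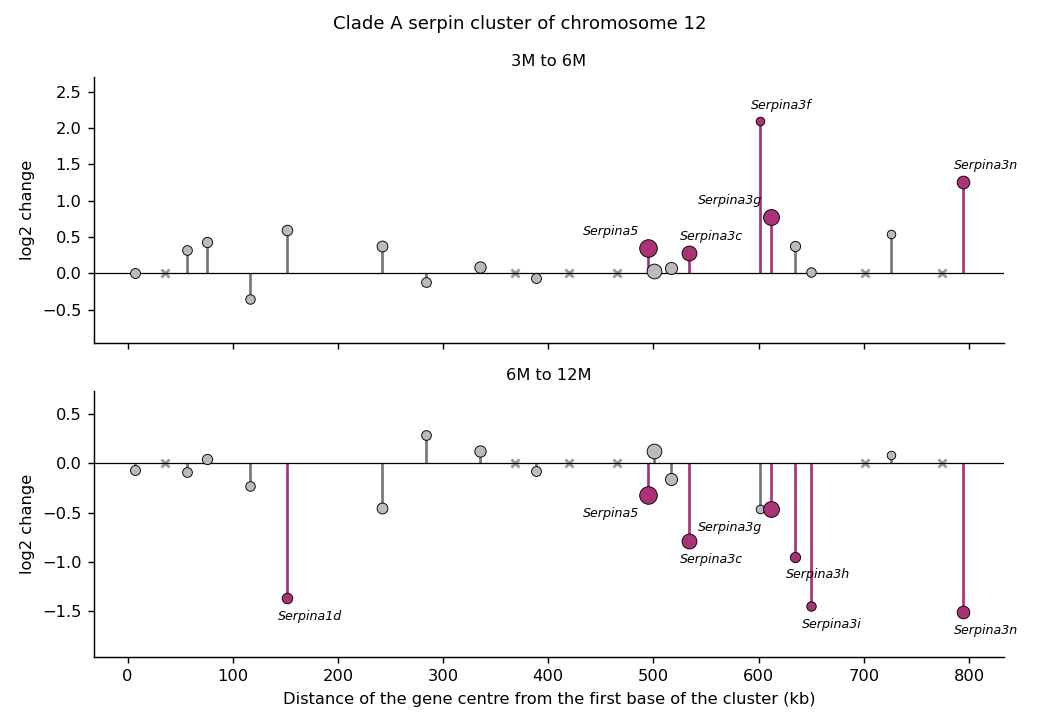
Fitted log2 change (vertical axis) of the serpin genes of the chromosome 12 cluster against the distance of the gene centre from the first base of the cluster in kb (horizontal axis), for 3M to 6M and 6M to 12M. Larger points have a higher mean FPKM, colored points an unadjusted p-value of 0.05 or less, and crosses are genes not tested.

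Between 12M and 18M, edgeR called 0 of 38 members tested, beside 0.0275% of all genes, and DESeq2 0 of 47 with an adjusted p-value, beside 0.178%. Serpina1b alone had an unadjusted p-value of 0.05 or less (2.63% of the members, beside 3.52% of all genes). It was lower at 18M, as were 1.88% of all genes, while 0 members were higher (1.65%), and its log2 difference was at least 1 in size, as in 0.418% of all genes. The estimate was above 0 in 22 members, beside 50% of all genes, with a median log2 change of 0.04. CPM did not overlap for 4 members, beside 8.83% of all genes, with 3 higher at 18M (4.39%) and 1 lower (4.44%).

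Serpinb6a (chr13:33917918-34002794, minus strand) showed how far isoform levels can be read. The table holds 12 isoforms of it, 3 from a distal start at position 34002794 and 9 from the proximal side, of which 5 start at 33936083, 66711 bases away. One assembled isoform, MSTRG.5092.12, adds a cassette exon of 213 nt at chr13:33954898-33955110. Its FPKM was 22.2 in 3M-2, 19.2 in 12M-2 and 29.0 in 18M-3, but 0.151 to 2.33 in the other 9 mice. The mean read coverage of the cassette exon itself showed no such split. It was 5.75, 2.80 and 3.83 in those 3 mice and 2.86 to 7.35 in the other 9, against 436.6 to 602.5 over an exon that all 12 isoforms share. Reads on the defining exon thus differed by a factor of 2.63 at most over all mice, and the FPKM given to the isoform by a factor of 192.0.

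**Figure D5:**
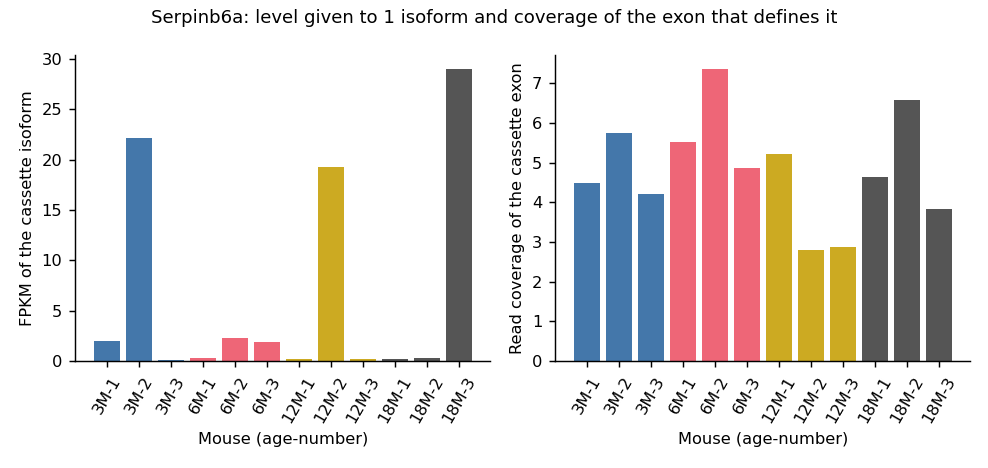
FPKM of the Serpinb6a isoform with the cassette exon (left) and mean read coverage of that exon (right) in each of 12 mice, as bars from 0 colored by age. The isoform is high in 3M-2, 12M-2 and 18M-3, while the exon's coverage in these mice lies between 2.80 and 5.75, within the range of the others.

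Use of the distal start was therefore measured by coverage of the distal exon 2 (chr13:33996243-33996351) as a share of that of the shared exon (chr13:33931472-33931646). The share was 27.6%, 27.3% and 31.3% at 3M, 27.1%, 27.1% and 26.1% at 6M, 27.5%, 32.9% and 23.8% at 12M, then 23.8%, 22.9% and 23.98% at 18M. The means were 28.7% ± 2.27 at 3M and 23.6% ± 0.56 at 18M (SD, n = 3 each), and the ages did not overlap. The difference of -5.17 percentage points had p = 0.1 in a two-sided exact permutation test, the smallest value that 3 against 3 mice allow. By isoform FPKM the distal share was 61.0% ± 12.1 at 3M and 54.2% ± 18.9 at 18M (exact permutation p = 0.7). Exons of 1110046J04Rik and Ripk1 overlap those of Serpinb6a on the opposite strand, so reads there cannot be assigned to a strand in these libraries.

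The deposited transcripts of other members call for similar care. All reads of Serpina3g were in 4 assembled isoforms that start near position 104236142 or 104236252, and its RefSeq transcript NM_009251, which begins at 104214544, the start of Serpina3f, is listed at 0 in all mice. Of the reads of Serpina5, 72.8% were in NM_172953 and 27.2% in an assembled transcript of 9952 nt that runs on through Serpina3a. The RefSeq transcript had 22.8 to 23.3 FPKM at 3M, 26.3 to 33.4 at 6M and 19.2 to 24.4 at 12M. Serpinh1 had 53.3% of its reads in the assembled isoform MSTRG.18705.5 and 34.0% in NM_001111044. The former ranged from 0.0931 to 3.47 FPKM and the latter from 0.292 to 2.92 FPKM, whereas the sum stayed between 3.33 and 4.76 FPKM. In the test of the slope over 58289 transcripts, edgeR called 0 of 67 serpin transcripts (0.0103% of all transcripts), and 7 had an unadjusted p-value of 0.05 or less (7.15% of all transcripts). DESeq2 called the RefSeq transcripts of Serpina1b (NM_009244) and Serpina1d (NM_009246), 2 of 73 serpin transcripts with an adjusted p-value (2.74%, beside 1.8% of all transcripts).

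The transcript with the most reads was the RefSeq one for Serpina3c (94.1% of its reads in NM_008458), Serpina3a (79.2% in NM_001167705) and Serpina3n (56.5% in NM_009252). Serpinf1, Serpini1, Serpinb9, Serpinb1a and Serpinb6c have a single transcript each. In Serpinb6a the most reads, 28.8%, were in the assembled MSTRG.5092.1. In Serpina3g they were in MSTRG.4718.8, with 38.5%, whose FPKM was 1.43 to 1.82 at 3M and 2.89 to 9.12 at 6M.

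Genes that serpins act on or with were examined by the same slope test (edgeR, adjusted over all genes). Over all genes the slope called 0.41% with edgeR and 3.45% with DESeq2, and 17.5% had an unadjusted edgeR p-value of 0.05 or less. Of 37 target proteases, 27 were tested and 0 called, with 5 at an unadjusted p-value of 0.05 or less, whereas DESeq2 called 3 (Ctsb, Gzmn and Htra1, named after their values were seen). The highest levels among them were those of Acr (acrosin, the acrosomal protease, 53.3 to 69.8 FPKM) and Ctsl (cathepsin L, 53.0 to 73.9 FPKM). Their log2 change per month was 0.0025 (SE 0.0068) and 0.0056 (SE 0.0054). Of 20 cofactors and receptors tested, 1 was called by edgeR and 3 by DESeq2. Ndst1, an enzyme that sulfates heparan sulfate, fell from 23.8 ± 1.19 CPM at 3M to 18.3 ± 1.62 CPM at 18M (adjusted p = 0.0305). Pnpla2, a lipase that binds the Serpinf1 protein, and Sdc4, a heparan sulfate proteoglycan, had the highest levels of that list, with means of 102.8 and 9.36 FPKM.

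Among 42 other protease inhibitors tested, 1 rose and 2 fell with edgeR, beside 0.41% of all genes called. DESeq2 called 4, beside 3.45% of all genes. Fetub, which encodes fetuin-B, an inhibitor of astacin proteases such as ovastacin, rose from 0.720 ± 0.280 CPM at 3M to 2.82 ± 0.748 at 6M, 5.37 ± 1.24 at 12M, then 7.15 ± 1.76 at 18M (adjusted p = 0.0299). Itih2 and Itih5, heavy chains of inter-alpha-trypsin inhibitor that bind hyaluronan, fell from 13.4 ± 2.35 to 4.52 ± 1.19 CPM (adjusted p = 0.000545) and from 4.78 ± 1.003 to 2.39 ± 0.596 CPM (adjusted p = 0.0484). Pebp1 and Spink2 had the highest levels of the list, with means of 1054 and 389.8 FPKM, far above any serpin.

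Serpinh1 helps fold collagens. Of 39 collagens and collagen-modifying enzymes tested, 4 fell and 0 rose with edgeR, beside 0.41% of all genes called. DESeq2 called 9, 8 of them falling, beside 3.45% of all genes. Col1a2 fell from 17.2 ± 3.61 CPM at 3M to 7.82 ± 1.55 CPM at 18M (adjusted p = 0.00647) and Col3a1 from 10.1 ± 2.95 to 5.06 ± 0.824 CPM (adjusted p = 0.0251). Col1a1 fell from 8.71 ± 2.81 to 4.40 ± 0.715 CPM (adjusted p = 0.0476) and Adamts2, the procollagen peptidase, from 4.40 ± 0.870 to 2.42 ± 0.382 CPM (adjusted p = 0.0484). P4hb and Ppib had the highest levels of the list, with means of 25.8 and 24.3 FPKM. Serpinh1 itself had 12.1, 11.4 and 10.4 CPM at 3M and 10.5, 8.76 and 11.3 CPM at 18M, with overlapping ages and a log2 change over 15 months of -0.11 (SE 0.11). That value depends on the assembled isoform. With RefSeq transcripts only, the log2 change over 15 months was -1.43 (SE 0.38, edgeR unadjusted p = 0.00296 and adjusted p = 0.206). The 4 fibroblast markers, of which Col1a1 is also in the collagen list, summed to 33.3 to 49.2 CPM at 3M and 24.97 to 35.2 CPM at 18M, and their part in these values was not tested.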

How the data were processed

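The 12 libraries were assigned to ages by their labels. Per the study, reads were aligned with HISAT2 to mm10, and transcripts were assembled with StringTie. The deposited assemblies name StringTie version 1.3.3b. The authors deposited 1 table with an estimated count (mean coverage times length over read length, in whole numbers) and an FPKM per transcript and library, beside assemblies with mean coverage for every mouse. Transcripts without a symbol or of other classes held 5.31% of reads and were left out of gene sums. The estimated counts do not mark strand, and reads shared by isoforms or copies were divided by the assembler.

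Counts summed per gene were tested by the quasi-likelihood method of edgeR 4.0.16 (TMM scaling, the filterByExpr filter, Benjamini-Hochberg adjustment over every gene tested, R 4.3.3), for the slope on age in months over all 12 libraries and for pairs of ages on their 6 libraries. A gene was called at an adjusted p-value up to 0.05. Pairs were also read, with thresholds as the study set them for DESeq2 on transcripts but here on the edgeR fits of genes, at an unadjusted p-value of 0.05 or less with a log2 difference of at least 1 in either direction. Alternatives were other normalizations and filters, DESeq2 1.42.0 (an adjusted p-value given as NA is no call), limma 3.58.1 on log2(FPKM + 0.1) and log2(FPKM + 1), other transcript classes, log2 of age, the mouse number as a block, all 12 libraries in a pair's fit, and each library left out in turn. The edgeR fits were run on simulated counts with 200 genes changed by a factor of 2. They recovered 82% of these genes in the slope, with 6 false calls. In pairs of ages they recovered 72.5% to 75.5%, with 8 to 17 false calls. The changed genes were drawn at random from all levels, so these shares do not give the power for the serpins. Library depth was 50924104 to 71803379 counted reads. Python 3.11.15 with pandas 2.3.3, scipy 1.17.1 and matplotlib 3.10.9 served for the rest.

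The members, lists and tests were chosen with earlier results of these data known. Named are serpins with a mean FPKM of 1 or more, serpins with an unadjusted p-value of 0.05 or less in the slope or between 3M and 18M, serpins without a read, and from each other list up to 4 genes called and the 2 highest in FPKM. Promoters are from RefSeq (62 of 63 members matched), exons from the authors' assemblies and GENCODE vM21.
Same-aged mice are separate animals, so the tests set a difference between ages against the spread between mice of an age. An effect of litter or processing shared by the mice of an age cannot be told apart from age.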

Additional observations from a re-analysis of the deposited data

Results flagged for a closer look

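Another 6 transcripts named for serpins lie outside the classes summed above and had reads in every mouse, more than the 3 reads that a count of 0 allows. They are not part of the gene sums given here. At Serpinb9b (chromosome 13), 3 transcripts on the opposite strand to its exons had at least 28 (MSTRG.5086.1), 18 (MSTRG.5086.2) and 32 reads (MSTRG.5086.3) in a mouse, with medians of 80, 60 and 84. A single-exon transcript of 4285 nt over the same locus (MSTRG.5085.2, chr13:33030323-33034607) had 177 to 561 reads, whereas the Serpinb9b transcript itself had 6 to 62. At Serpinb9c, MSTRG.5087.1 on the opposite strand had 104 to 197 reads, beside 13 to 29 for Serpinb9c. MSTRG.4716.1 (chr12:104122189-104125560), just beyond the end of Serpina3a, had 139 to 261 reads, beside 262 to 499 for Serpina3a. Without strand in the libraries, reads of overlapping transcripts on the 2 strands cannot be told apart, so the values of Serpinb9b and Serpinb9c depend on how those reads were divided, which was not tested.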

How the results depend on the processing

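The count of serpins called was 0 in the slope, in 3M versus 18M and in 12M versus 18M under every alternative test run. The count became 2 with DESeq2 between 3M and 6M (Serpina3g and Serpina5), 2 with DESeq2 between 6M and 12M (Serpina3c and Serpina3n), and 2 with DESeq2 over transcripts (NM_009244 and NM_009246). The cause was not tested. At an unadjusted p-value of 0.05 or less the counts were 8 serpins in the slope and 7 transcripts, and where the log2 difference also had to be at least 1 they were 2 between 3M and 18M, 2 between 3M and 6M, 3 between 6M and 12M and 1 between 12M and 18M. With edgeR, leaving out each mouse gave 0 serpins called in every comparison, and a median slope of -0.0081 (without 18M-1) to -4.6e-05 (without 6M-3) beside -0.0029. DESeq2 was not run with a mouse left out.

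Over all genes, the slope called 76, 193 without mouse 18M-1 and 18 without mouse 18M-3 (the extremes with a mouse left out), 568 with DESeq2, 40 with limma on log2(FPKM + 0.1), 45 without a filter, 11 with RefSeq transcripts only and 17 in the test of any difference among the 4 ages, which was added after the data were seen. DESeq2 called 256 genes between 3M and 18M against 12, 69 against 9 between 3M and 6M, 108 against 11 between 6M and 12M and 34 against 5 between 12M and 18M. With all 12 libraries in the fit the pairs gave 22, 3, 3 and 0 in the same order, and RefSeq transcripts only gave 19 between 3M and 18M and 0 between 3M and 6M. Over transcripts, 6 were called, 1075 with DESeq2 and 11 with a mean CPM of 1 or more.

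Mouse numbers are shared by the ages but belong to different animals. Deviations of same-numbered mice correlated with r of -0.063 to 0.17 over 18 pairs of libraries, and those of other numbers with r of -0.17 to 0.106. Of 12 libraries, 4 correlated best with their own number. These correlations cannot exclude a processing step shared by number. With the number as a block, edgeR called 42 genes in the slope, 7 between 3M and 18M, 8 between 3M and 6M, 0 between 6M and 12M and 4 between 12M and 18M, with 0 serpins in each, and 3 transcripts with 0 of serpins. The median slope with the block was -0.0027.

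Of 192 slopes of the 18 named serpins under alternatives, 3 changed sign and 0 were called. These were Serpinb6a with 0.0017 and Serpina3n with 0.039 in RefSeq transcripts only, and Serpini1 with 0.0056 against log2 of age. The slope of Serpinh1 kept its sign but went from -0.0074 to -0.095 with RefSeq transcripts only. With a mouse left out, slopes of 5 serpins changed sign: Serpinb6a ranged from -0.0077 to 0.0038, Serpina5 from -0.0099 to 0.00072, Serpina3g from -0.0049 to 0.022, Serpini1 from -0.0057 to 0.0034 and Serpinb9 from -0.0063 to 0.00055. Serpina1d, Serpina1b, Serpina3i, Serpini2 and Serpinb2 had at most 54 reads in a mouse, which limits their precision.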
